A study of Mus musculus with 6 samples.

Results

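Striated muscle transcripts were measurable in microdissected mouse thyroid. The genes described here are the fast and slow isoforms of the troponin subunits and of the myosin light chains. They are Tnnt3, Tnni2, Tnnc2, Mylpf and Myl1 on the fast side and Tnnt1, Tnni1, Tnnc1, Myl2 and Myl3 on the slow side. Every probe set that the array's annotation gives to one of these 10 genes alone was taken, 14 probe sets in all, out of 18193 genes with a probe set of their own. The samples were 3 thyroid RNAs from Slc26a4 knockout mice (sample numbers 2, 4 and 6) and 3 from Slc26a4 heterozygous mice (1, 3 and 5), all at postnatal day 15. Slc26a4 encodes pendrin, an apical anion exchanger, and the heterozygous controls also carry 1 disrupted copy. The sources used here do not give the strain, the sex, the deleted part of the gene or how many animals stand behind an RNA, so a p-value here covers sample-to-sample spread alone, which may be technical in part.

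Troponin is the calcium switch of the thin filament in striated muscle. Troponin T anchors the complex to tropomyosin, troponin I holds back the binding of myosin to actin, and troponin C binds calcium and releases that block. The myosin head carries an essential and a regulatory light chain. Fast and slow fibres use different genes for each of these parts, and several slow isoforms (Tnnc1, Myl2, Myl3) are also those of the heart ventricle. Thyroid follicles hold no striated fibres, while striated muscle of the larynx, neck and oesophagus lies close to the gland.

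The upstream sequences of 2 fast members that moved together across arrays (Tnnc2, Mylpf) and of 2 slow members that did not follow them (Tnnt1, Myl3) are shown. They are the 250 bases before a RefSeq transcription start in mouse GRCm38.p6, written 5′ to 3′ on the strand of the gene. A window was found for 8 of the 10 members, 10 windows in all, since Tnni1 and Myl2 had more than 1. Capitals mark matches, on either strand, to the E-box CANNTG, the MEF2 site, the CArG box, the M-CAT element CATTCC or the TATA box TATAAA. No match of one motif overlapped a match of another, with 0 overlaps in the 10 windows.
Tnnc2 (fast troponin C), chr2:164779735-164779984, minus strand: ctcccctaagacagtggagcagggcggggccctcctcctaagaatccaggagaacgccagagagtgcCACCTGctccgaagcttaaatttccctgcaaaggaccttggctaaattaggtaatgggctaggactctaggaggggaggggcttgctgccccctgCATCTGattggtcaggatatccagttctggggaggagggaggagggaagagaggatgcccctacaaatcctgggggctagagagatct
Mylpf (fast regulatory light chain), chr7:127211358-127211607, plus strand: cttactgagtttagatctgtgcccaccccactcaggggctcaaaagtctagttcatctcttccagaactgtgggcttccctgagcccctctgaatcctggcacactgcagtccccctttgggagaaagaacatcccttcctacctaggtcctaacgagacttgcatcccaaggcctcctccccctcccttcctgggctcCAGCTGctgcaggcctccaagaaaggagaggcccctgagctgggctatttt
Tnnt1 (slow troponin T), chr7:4515976-4516225, minus strand: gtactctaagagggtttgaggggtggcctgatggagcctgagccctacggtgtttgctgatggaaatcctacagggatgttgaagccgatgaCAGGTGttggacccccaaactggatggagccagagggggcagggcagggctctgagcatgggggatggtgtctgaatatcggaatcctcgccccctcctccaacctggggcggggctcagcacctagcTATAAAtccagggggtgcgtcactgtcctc
Myl3 (slow essential light chain), chr9:110763428-110763677, plus strand: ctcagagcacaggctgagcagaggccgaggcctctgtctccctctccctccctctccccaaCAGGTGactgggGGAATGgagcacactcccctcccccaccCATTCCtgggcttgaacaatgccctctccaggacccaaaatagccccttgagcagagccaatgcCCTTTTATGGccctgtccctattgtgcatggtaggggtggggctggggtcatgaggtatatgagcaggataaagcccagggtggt

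All 10 member windows held an E-box, the letters read by myogenic factors such as MyoD, as did 66.2% of the 32851 windows of this length. The member windows come from 8 genes, and those of Tnni1 overlap and share E-boxes, so they are not 10 separate cases. A MEF2 site was in 0 of the 10 member windows and in 2.92% of all windows. M-CAT letters were in 3 member windows, those of Myl1, Tnnc1 and Myl3, and in 12.6% of all. The Myl3 window was the 1 member window with a CArG box, which 1.47% of all windows held, and it had 2 M-CAT matches. TATAAA was in 3 member windows and in 12.4% of all. These matches describe the letters of the windows and say nothing of binding.

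The arrays report a signal per probe set on a linear scale, and the brightest of 27 bacterial control probe sets, 22.9, is used as background. Of the 14 member probe sets, 11 were bright enough to be tested. The 3 that were not tested were the only probe sets of Tnni1 and Myl2 and 1 of the 3 of Tnni2, so that 8 of the 10 genes were tested, all 5 fast and 3 of the 5 slow ones. Slc26a4 itself (1419725_at) read 7.29, 2.10 and 15.7 on knockout arrays 2, 4 and 6 and between 4.59 and 12.1 on the heterozygous arrays. All these values lie under background, so this probe set does not check the genotype labels. The 8 measured thyrocyte marker genes summed to 34862 to 40613 signal units on the knockout arrays and 35326 to 42725 on the heterozygous arrays. The 19 measured skeletal muscle markers summed to 7096 to 26692 on the knockout arrays and 15448 to 29921 on the heterozygous arrays, a 4.22-fold span over the 6 arrays against 1.23-fold for the thyrocyte markers. In dissected tissue, fewer muscle cells and less of an RNA per cell cannot be told apart.

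The fast isoforms were far above background on all 6 arrays and lowest on knockout 6. Fast troponin T, Tnnt3 (1450118_a_at), read 4555, 2847 and 944 on knockout arrays 2, 4 and 6 and 4838, 3309 and 3154 on heterozygous arrays 1, 3 and 5. Knockout 2 lay among the heterozygous arrays, knockout 4 somewhat under them and knockout 6 far under them. The means were 2782 ± 1807 in knockout and 3767 ± 931 in heterozygous thyroid (SD, n = 3 each), and the log2 difference was -0.68 (95% interval -1.82 to 0.47; limma, adjusted p = 1.0).

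Fast troponin I, Tnni2, had 2 bright probe sets. One, 1438609_x_at, read 4663, 2198 and 396 on knockout arrays 2, 4 and 6 and 4824, 3336 and 2542 on heterozygous arrays 1, 3 and 5. The other, 1416889_at, read 3716, 2026 and 781 on the knockout arrays and 3894, 2312 and 2845 on the heterozygous arrays in the same order. Both put knockout 6 lowest and heterozygous 1 and knockout 2 highest, and the groups overlapped on both. The log2 differences were -1.09 (95% interval -2.85 to 0.66) and -0.70 (-1.83 to 0.43), and neither passed (limma, adjusted p = 1.0 for each). A further Tnni2 probe set, 1438608_at, stayed under background on all 6 arrays, with 13.9 as its highest value. Tnni2 and Tnnt3 are close neighbours on chromosome 7, with 1 protein-coding gene between them in the RefSeq order.

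Fast troponin C, Tnnc2 (1417464_at), read 4079, 2815 and 1390 on knockout arrays 2, 4 and 6 and 4994, 3045 and 3608 on heterozygous arrays 1, 3 and 5. The order of the arrays was close to that of the other fast troponins, with a smaller span of 3.59-fold from the highest to the lowest. The group means were 2761 ± 1345 in knockout and 3882 ± 1003 in heterozygous thyroid, and the log2 difference of -0.59 (95% interval -1.42 to 0.24) did not pass (limma, adjusted p = 1.0).

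Both fast light chains repeated this array pattern. Mylpf (1448371_at), the fast regulatory light chain, read 6891, 4801 and 2000.2 on knockout arrays 2, 4 and 6 and 7222, 5852 and 6201 on heterozygous arrays 1, 3 and 5. Its heterozygous values lay within 1.23-fold of each other, while its knockout values spanned 3.45-fold. Its log2 difference was -0.66 (95% interval -1.54 to 0.23), with the smallest unadjusted p of the members, 0.124 (limma, adjusted p = 1.0). Myl1 (1452651_a_at), the fast essential light chain, read 4512, 2693 and 1274 on knockout arrays and 4722, 3092 and 2815 on heterozygous arrays in the same order. Its log2 difference was -0.47 (-1.42 to 0.48; limma, adjusted p = 1.0).

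**Figure D1:**
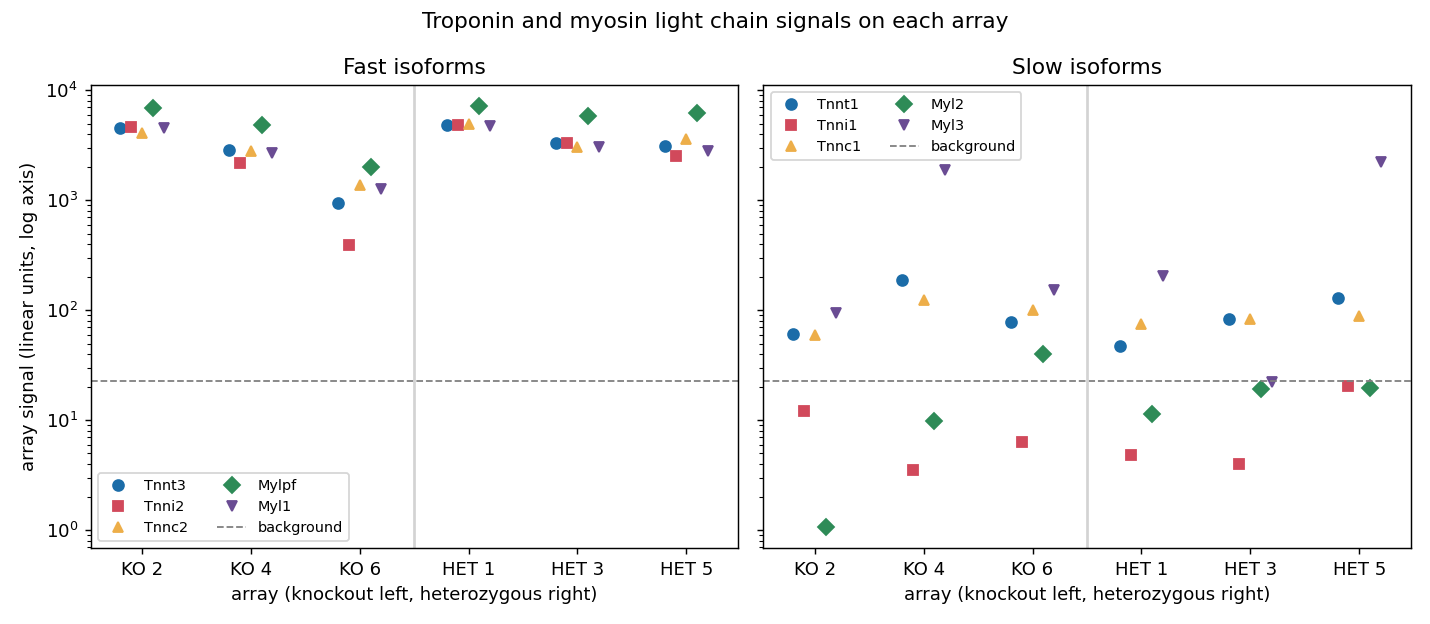
Array signal of each member's brightest probe set on a linear scale drawn on a log axis, with the fast isoforms in the left panel and the slow isoforms in the right one, the 3 knockout (KO) arrays left of the 3 heterozygous (HET) arrays, and the background of 22.9 as a dashed line. The fast isoforms are lowest on knockout 6, Myl3 is high on knockout 4 (1904) and heterozygous 5 (2233), and Tnni1 and nearly all values of Myl2 lie under background.

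Apart from Myl3 on knockout 4 (1904) and heterozygous 5 (2233), the slow isoforms lay nearer to background or under it. The slow isoforms did not share 1 pattern. Slow troponin T, Tnnt1 (1419606_a_at), read 60.6, 187.9 and 77.9 on knockout arrays 2, 4 and 6 and 47.1, 83.3 and 129.2 on heterozygous arrays 1, 3 and 5. It was highest on knockout 4 and heterozygous 5, and lowest on heterozygous 1 and knockout 2, the arrays on which the fast isoforms were highest. The means were 108.8 ± 69.0 in knockout and 86.5 ± 41.1 in heterozygous thyroid, a log2 difference of 0.23 (95% interval -0.76 to 1.22; limma, adjusted p = 1.0).

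Slow and cardiac troponin C, Tnnc1 (1418370_at), was the steadiest of the tested members, at 60.3, 124.6 and 101.8 on knockout arrays 2, 4 and 6 and 75.2, 83.0 and 89.2 on heterozygous arrays 1, 3 and 5. The heterozygous values fell inside the range of the knockout values. The log2 difference was 0.14 (95% interval -0.47 to 0.74; limma, adjusted p = 1.0). Slow troponin I, Tnni1 (1450813_a_at), read between 3.54 and 12.2 on the knockout arrays and between 4.01 and 20.4 on the heterozygous arrays, all under background. Myl2 (1448394_at), the slow and ventricular regulatory light chain, read 1.07, 9.88 and 40.2 on knockout arrays 2, 4 and 6 and 11.5, 19.2 and 19.8 on heterozygous arrays 1, 3 and 5. Knockout 6 was the 1 array on which Myl2 exceeded background.

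Myl3, the slow and ventricular essential light chain, varied most of all members and did so inside both genotypes. By its brightest probe set, 1427768_s_at, it read 94.8, 1904 and 153.8 on knockout arrays 2, 4 and 6 and 205.7, 22.2 and 2233 on heterozygous arrays 1, 3 and 5. Knockout 4 and heterozygous 5 stood far above the other arrays, and heterozygous 3 was just under background. Probe set 1428266_at, which stayed above background on every array, read 52.9, 805.7 and 69.0 on the knockout arrays and 131.9, 24.3 and 894.3 on the heterozygous arrays, a 36.8-fold span. Probe set 1427769_x_at put the same arrays highest and lowest, with 539.0 on knockout 4, 693.7 on heterozygous 5 and 15.4 on heterozygous 3. The log2 differences were 0.30, -0.06 and 0.35 for 1427768_s_at, 1428266_at and 1427769_x_at, with intervals as wide as -3.17 to 3.78 for the first (limma, adjusted p = 1.0 for each). The within-group spread of the Myl3 probe sets lay at or above the 99.9th percentile of the 27022 probe sets tested. For the tested fast probe sets it lay between the 93.2nd and the 99.7th percentile, for Tnnt1 at the 95.3rd and for Tnnc1 at the 74.5th.

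No member passed between knockout and heterozygous thyroid. Of the 11 member probe sets tested, 0 passed in limma after adjustment over all 27022 probe sets, where 0% passed, and 0 had an unadjusted p under 0.05, against 0.511% of all. Over all probe sets limma gave 138 an unadjusted p under 0.05, and a test with unequal variances for each probe set alone gave 283, with 0 after adjustment. The knockout and heterozygous arrays overlapped for all 14 member probe sets, while 3.68% of the probe sets tested had groups that did not overlap (1.64% with all knockout arrays higher and 2.04% with all of them lower). All 6 tested fast probe sets had a log2 difference below 0, with a median over the 5 fast genes of -0.66. By their brightest probe sets, the 3 tested slow genes had differences of 0.14 to 0.30 with a median of 0.23. Of all 5 tested slow probe sets 4 lay above 0 and 1 below, Myl3 1428266_at at -0.06. The median over all probe sets tested was -0.002. The fast genes share 1 array pattern and are therefore not independent of each other.

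Most of the fast difference came from knockout 6. The mean log2 level over the 5 fast genes, relative to the mean of the 6 arrays, was 0.61, -0.10 and -1.56 on knockout arrays 2, 4 and 6 and 0.73, 0.19 and 0.13 on heterozygous arrays 1, 3 and 5. The difference between the group means was -0.70, and without knockout 6 it was -0.09. Without knockout 6 the log2 differences were -0.04 for Tnnt3, -0.11 for Tnni2 (-0.10 by its other probe set), -0.16 for Tnnc2, -0.15 for Mylpf and 0.015 for Myl1. Without knockout 2 the mean difference was -1.18. In that fit 6 of the 11 member probe sets had an unadjusted p under 0.05 in limma, against 941 of all 27022, with 0 passing after adjustment. The fast members share 1 array pattern, so this is not a count of independent results. On knockout 6 the skeletal muscle marker list stood lowest as well, with a median log2 deviation of -1.44, and the thyrocyte list was at -0.06. Knockout 6 also had the highest array median, 103.6 against 78.1 to 93.7 on the other arrays, and the largest share of probe sets above background, 73.8% against 67.5% to 72.1%, and the part of this in the fast difference was not tested.

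**Figure D2:**
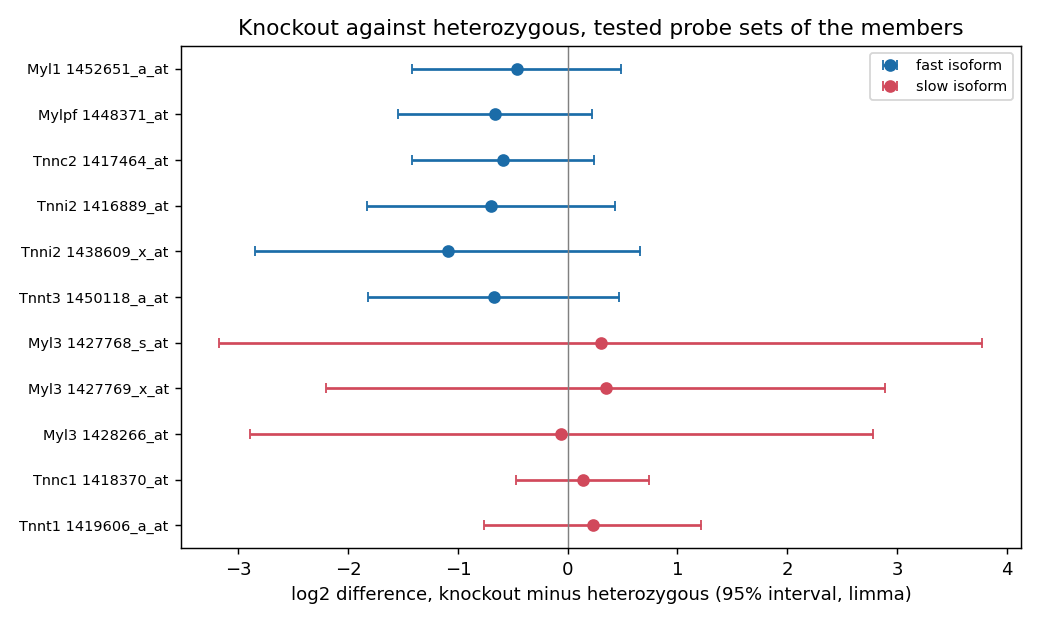
Log2 difference (knockout minus heterozygous, points) with its 95% interval from limma (bars) for the 11 tested probe sets of the members, fast isoforms in blue above and slow isoforms in red below. All 6 fast points lie left of 0, between -1.09 and -0.47, every interval crosses 0, and those of Myl3 are the widest.

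The ratio of the fast to the slow isoform was formed on each array for the 5 pairs as a difference of log2 levels. Probe sets differ in their response, so each ratio is given relative to its mean over the 6 arrays and is compared between arrays only. For troponin T (Tnnt3 over Tnnt1) it was 1.09, -0.99 and -1.45 on knockout arrays 2, 4 and 6 and 1.45, 0.26 and -0.36 on heterozygous arrays 1, 3 and 5. For troponin C (Tnnc2 over Tnnc1) it was 0.83, -0.58 and -1.34 on the knockout arrays and 0.86, 0.035 and 0.19 on the heterozygous arrays. Both troponin ratios were high on heterozygous 1 and knockout 2, and low on knockouts 4 and 6. The knockout minus heterozygous differences were -0.90 for troponin T and -0.73 for troponin C, each with an exact permutation p of 0.4 (two-sided). Without knockout 6 they were -0.40 and -0.24, and without knockout 2 they were -1.67 and -1.32.

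For the essential light chains (Myl1 over Myl3) the ratio was 2.04, -2.81 and -0.38 on knockout arrays 2, 4 and 6 and 1.11, 3.02 and -2.97 on heterozygous arrays 1, 3 and 5. Its highest and lowest values were both heterozygous, and since Myl3 was not above background on heterozygous 3, the 3.02 there rests on a value that gives only a bound. The difference was -0.77 (exact permutation p = 0.8, two-sided), and it was 0.44 without knockout 4 and 0.55 without heterozygous 3. In the troponin I and regulatory light chain pairs the slow member was under the limit for testing, so these ratios rest on slow values mostly under background. For Tnni2 over Tnni1 the difference was -0.99 (exact permutation p = 0.6) and for Mylpf over Myl2 it was -0.51 (exact permutation p = 0.9). Without knockout 6, where Myl2 exceeded background, they were -0.03 and 0.46. With 3 arrays against 3 the smallest possible p is 0.1, so none of the 5 pairs tested could pass. The mean over the 5 pairs was 1.19, -0.81 and -1.56 on knockout arrays 2, 4 and 6 and 1.06, 0.82 and -0.71 on heterozygous arrays 1, 3 and 5. It was above 0 on knockout 2 and heterozygous 1 and 3, and below 0 on knockouts 4 and 6 and heterozygous 5, so that both genotypes were on both sides. On heterozygous 3 and 5 the mean was moved most by Myl1/Myl3, at 3.02 and -2.97.

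**Figure D3:**
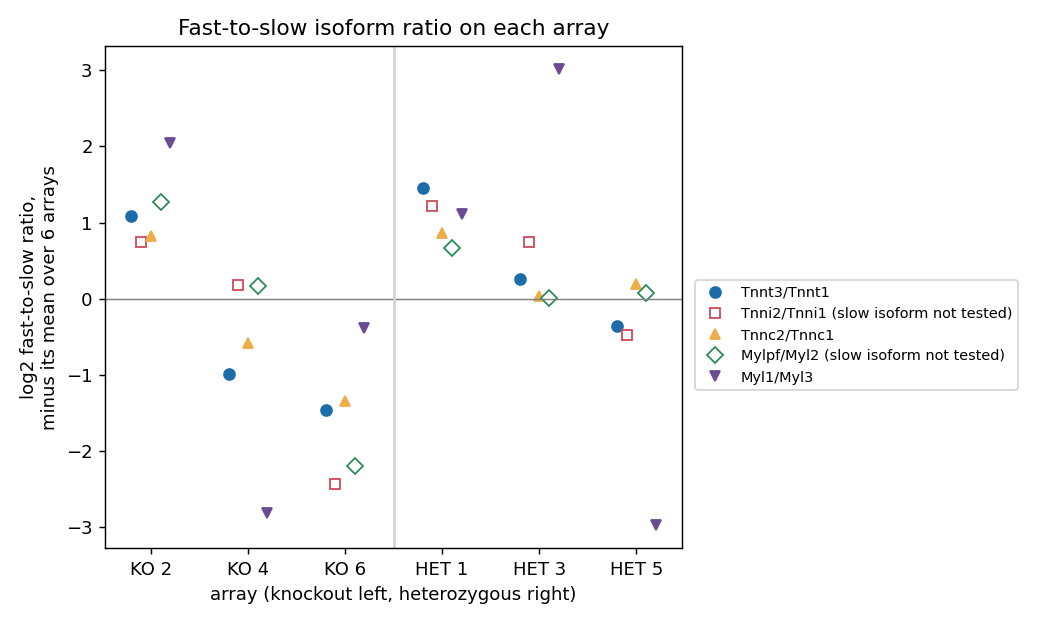
Log2 ratio of the fast to the slow isoform minus its mean over the 6 arrays, for the 5 pairs, with the 3 knockout (KO) arrays left of the 3 heterozygous (HET) arrays; open symbols mark pairs whose slow isoform was not tested. Knockout 2 and heterozygous 1 are high for every pair, knockout 6 is at or below -1.34 for every pair but Myl1/Myl3, and Myl1/Myl3 has the widest span, from -2.97 on heterozygous 5 to 3.02 on heterozygous 3, where Myl3 was not above background.

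Across the 6 arrays the log2 levels of the 5 fast genes ran in parallel, with Pearson correlations between 0.95 and 1.0 over their 10 pairs. The 3 pairs among Tnnt1, Tnnc1 and Myl3 had correlations of 0.56 to 0.79, and the 15 pairs of a fast with a tested slow gene lay between -0.66 and 0.06. These are descriptions over 6 arrays of 2 genotypes that share their scaling, with no p. Of the 12896 other genes with a tested probe set, the 10 most like the fast mean by correlation were Mef2c, Mid1ip1, Mybpc1, Iqsec2, Usp20, Tpm2, Myod1, Dusp16, Met and Cfap97, with correlations of 0.99 to 1.0. Among these, Mef2c and Myod1 are transcription factors of muscle, Mybpc1 is a myosin-binding protein and Tpm2 is a tropomyosin, the protein on which troponin sits. The tropomyosins Tpm1 and Tpm3 correlated with the fast mean at 0.07 and 0.87. Mybpc1 spanned 5.72-fold and Tpm2 3.63-fold over the 6 arrays, whereas Mef2c spanned 1.73-fold and Iqsec2 1.19-fold.

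Other skeletal muscle genes were set beside the fast members. Of 18 tested skeletal muscle marker genes, 0 passed in either direction (limma, with 0 at an unadjusted p under 0.05). Their median log2 difference was -0.65, with 17 below 0 and 1 above. With the fast mean, 10 of them correlated at 0.9 or above, as did 2 of the 8 thyrocyte genes. The share of all genes that reached 0.9 is not given here, so these counts are not read as a trait of muscle genes. The creatine kinase Ckm (1417614_at) read 545.5, 230.0 and 89.1 on knockout arrays 2, 4 and 6 and 534.3, 224.5 and 239.3 on heterozygous arrays 1, 3 and 5. Skeletal actin, Acta1 (1427735_a_at), read 4235, 2751 and 879.6 on the knockout arrays and 3596, 3243 and 3280 on the heterozygous arrays. The fast myosin heavy chain Myh4 (1427026_at) read 5888, 1251 and 198.5 on the knockout arrays and 6311, 1081 and 1684 on the heterozygous arrays, with a correlation of 0.95 with the fast mean. Ckm and Myh4 were named after their values were seen. For Acta1, Des, Cacng1 and Mb, the skeletal muscle markers of smallest p, the correlations were 0.98, 0.71, 0.55 and -0.20. That of the marker Actn2 was -0.14.

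Of 12 tested fast fibre genes, some also counted as skeletal muscle markers, 10 had a difference below 0 (median -0.69) and 0 passed. The 4 of smallest p were Myh2, Atp2a1, Casq1 and Myh1. The fast heavy chain Myh2 (1425153_at) had a difference above 0, at 151.6, 171.1 and 211.7 on knockout arrays 2, 4 and 6 and 37.0, 259.5 and 91.7 on heterozygous arrays 1, 3 and 5 (log2 difference 0.72, 95% interval -0.47 to 1.92; limma, adjusted p = 1.0). The fast heavy chain Myh1 (1427520_a_at) read 4593, 2854 and 1313 on the knockout arrays and 3142, 6383 and 2661 on the heterozygous arrays. Both were highest on heterozygous 3, and their correlations with the fast mean were -0.52 for Myh2 and 0.77 for Myh1, so the 3 fast heavy chains did not share 1 pattern. The calcium pump Atp2a1 averaged 2293 ± 2237 in knockout and 3504 ± 2217 in heterozygous thyroid, and the calcium store protein Casq1 averaged 739.0 ± 786.9 in knockout and 1126 ± 805 in heterozygous thyroid. Of 10 tested slow fibre genes, 5 lay below 0 and 5 above (median -0.015), and 0 passed. Mybpc1, the slow form of myosin-binding protein C, was placed with the slow genes but followed the fast isoforms, at 1228, 632.6 and 216.8 on knockout arrays and 1241, 794.6 and 731.4 on heterozygous arrays. Of the 10 tested slow fibre genes 1 had groups that did not overlap, beside 3.68% of all probe sets tested. This was phospholamban, Pln (1460332_at), a regulator of the slow and cardiac calcium pump. It read 79.9, 92.2 and 114.1 on knockout arrays 2, 4 and 6 and 114.4, 133.2 and 184.4 on heterozygous arrays 1, 3 and 5, with a log2 difference of -0.51 (95% interval -1.04 to 0.03; limma, unadjusted p = 0.0593, adjusted p = 1.0). Pln is also a smooth muscle gene, and the smooth muscle myosin Myh11 (1448962_at) was likewise lower on all 3 knockout arrays, at 216.4 ± 34.1 in knockout and 275.4 ± 9.93 in heterozygous thyroid, without passing (adjusted p = 1.0). Of the 9 tested smooth muscle genes, 8 lay below 0 (median -0.15), 0 passed, and Myh11 was the 1 whose groups did not overlap. Myoglobin, Mb, averaged 1740 ± 421 in knockout and 1355 ± 196 in heterozygous thyroid, a log2 difference of 0.34 (-0.08 to 0.76; limma, adjusted p = 1.0).

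In the remaining lists 0 genes passed in either direction (limma), and 0 had an unadjusted p under 0.05. Of 12 other thin filament genes 10 lay below 0 (median -0.12), and of 10 other myosin and thick filament genes 9 did (median -0.50). The lists share genes, such as Acta1, Ttn and Myh4, so their counts are not separate. Of 7 developmental muscle genes 6 lay below 0 (median -0.22). The myogenic factor Myf6 averaged 95.7 ± 59.0 in knockout and 163.5 ± 77.8 in heterozygous thyroid. Of the other genes of smallest p in these lists, Myh8 differed by 0.50, Ncam1 by -0.22, Myod1 by -0.25, Nebl by -0.17, Lmod3 by -0.49, Tpm2 by -0.48 and Myom1 by -0.45 on the log2 scale. Of 7 other light chains 5 lay below 0 (median -0.03). Myl12b, which serves non-muscle myosin, and the smooth muscle chain Myl9 differed by -0.03 and 0.05 on the log2 scale, and Myl6 by -0.07.

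Some other striated muscle transcripts shared the arrays on which Myl3 was high. The neonatal myosin heavy chain Myh8 (1426650_at) read 79.1, 461.0 and 57.6 on knockout arrays 2, 4 and 6 and 54.4, 14.3 and 534.1 on heterozygous arrays 1, 3 and 5. Sarcolipin, Sln (1420884_at), an inhibitor of the calcium pump, read 82.7, 399.0 and 102.1 on the knockout arrays and 185.9, 17.1 and 528.4 on the heterozygous arrays. The muscle LIM protein Csrp3 (1460318_at) read 169.0, 784.5 and 245.7 on the knockout arrays and 161.4, 170.7 and 926.7 on the heterozygous arrays. All of them were highest on knockout 4 and heterozygous 5, and Sln and Myh8 were lowest, like Myl3, on heterozygous 3. Their correlations with Myl3 over the 6 arrays were 0.97 for Myh8, 0.97 for Sln and 0.93 for Csrp3. Sln and Csrp3 were named after their values were seen. The other tested genes of the slow fibre and developmental lists ranged from -0.92 for Lmcd1 to 0.87 for Myl4, so not all followed Myl3. The slow myosin heavy chain Myh7 (1448553_at) did not share the Myl3 pattern, at 18.8, 20.9 and 86.0 on knockout arrays 2, 4 and 6 and 11.2, 29.9 and 28.9 on heterozygous arrays 1, 3 and 5. It was above background on knockout 6, heterozygous 3 and heterozygous 5, and highest on knockout 6, the array on which Myl2 was also highest. Tnni1 and Myl2, at 3.54 and 9.88 on knockout 4 and 20.4 and 19.8 on heterozygous 5, were under background on both arrays where Myl3 was high.

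By the likeness rule, the 10 genes closest to the mean of the 5 slow members were Oxa1l, Elk4, Efnb3, Pcsk6, Abhd17c, Psmd8, Cbr4, Mcu, Csrp3 and Cfl2, with correlations of 0.98 to 1.0 over 6 arrays. Csrp3 spanned 5.74-fold and the other genes of this group between 1.16-fold and 1.84-fold. Myl3 weighed most in the slow mean, with a log2 range of 5.85 over the 6 arrays, against at most 1.68 for the other slow members. Tnni1 and Myl2 entered that mean with values mostly under background. With Myl3 alone as the pattern, a choice made after the values were seen, Cfl2, Sox10, Cox6c, Mrpl9, Oxa1l, Foxn3, Myh8, Elk4, Uqcc3 and Sln came first (0.97 to 0.98). Myh8 and Sln were not above background on heterozygous 3, so no span is given for them.

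**Figure D4:**
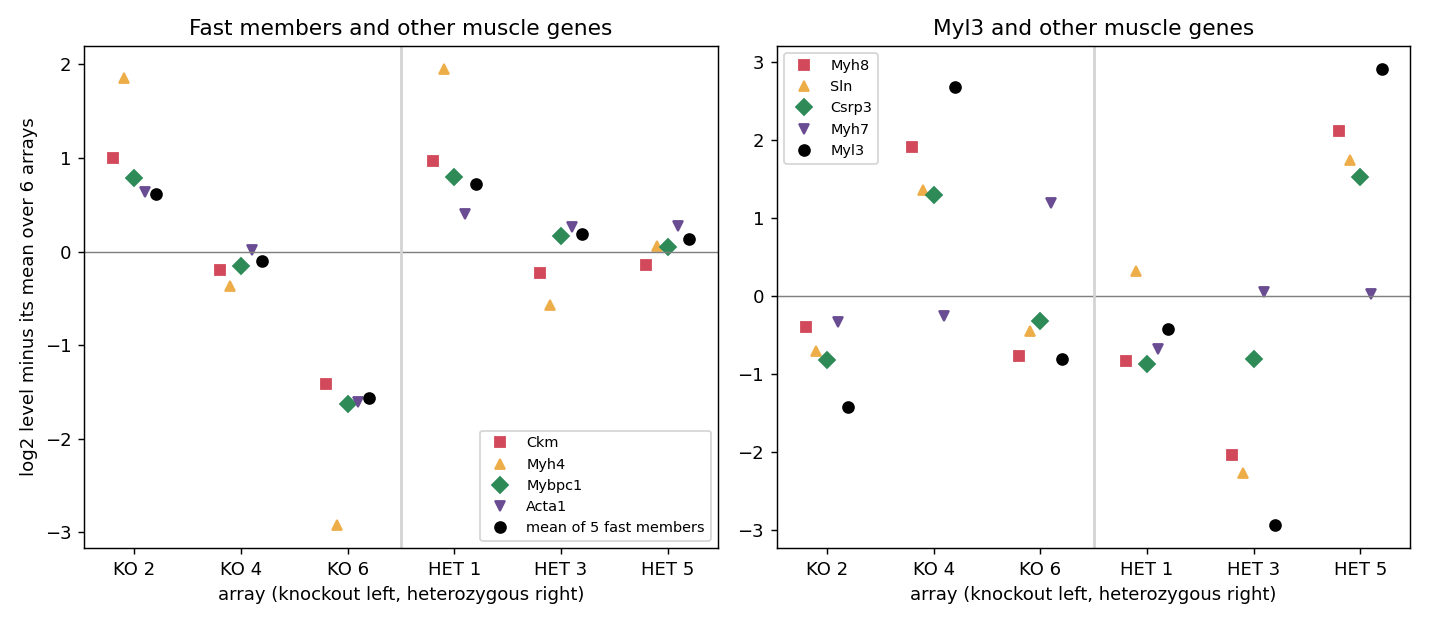
Log2 level minus its mean over the 6 arrays, with knockout (KO) arrays left of heterozygous (HET) arrays. The left panel sets the mean of the 5 fast members beside Ckm, Myh4, Mybpc1 and Acta1, all lowest on knockout 6, and the right panel sets Myl3 beside Myh8, Sln and Csrp3, all highest on knockout 4 and heterozygous 5, and beside Myh7, which is not.

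The heart markers were mixed, with the cardiac troponins and Myh6 under or near background and 3 of 10 markers above background on all 6 arrays. Cardiac troponin T, Tnnt2, lay under background on all 6 arrays by each of its 3 probe sets, with 16.7 as the highest value. Cardiac troponin I, Tnni3 (1422536_at), whose gene is the direct neighbour of Tnnt1 on chromosome 7, read 30.6, 6.33 and 30.7 on knockout arrays 2, 4 and 6 and 12.0, 26.0 and 10.99 on heterozygous arrays 1, 3 and 5. The atrial light chain Myl7 (1449071_at) did not exceed 15.9 and the cardiac myosin Myh6 did not exceed 17.6. Of the 10 heart markers 3 were tested, and 3 were under background on all arrays. Mybpc3 (1418551_at), the cardiac myosin-binding protein C, read 22.8, 12.0 and 19.9 on knockout arrays 2, 4 and 6 and 21.5, 47.3 and 28.2 on heterozygous arrays 1, 3 and 5, above background on 2 heterozygous arrays. The tested ones were Myl4, Actc1 and Ryr2, of which Myl4 and Actc1 are also made in embryonic skeletal muscle, and 0 passed. The calcium release channel Ryr2 (1450123_at) read 37.0, 56.96 and 70.5 on knockout arrays and 49.0, 35.4 and 93.03 on heterozygous arrays, highest on heterozygous 5, with a correlation of 0.76 with Myl3. Myl4 (1422580_at), the atrial and embryonic light chain, read 175.7, 256.6 and 248.7 on knockout arrays and 206.4, 114.7 and 499.0 on heterozygous arrays, highest on heterozygous 5 and lowest on heterozygous 3 as Myl3 was. Cardiac actin, Actc1 (1415927_at), read 1383, 1236 and 188.5 on knockout arrays and 5632, 84.5 and 1342 on heterozygous arrays. The summed heart list ran from 633.9 to 1729 on the knockout arrays and from 363.2 to 5995 on the heterozygous arrays, and Actc1 gave 5632 of the 5995 on heterozygous 1. The part of these heart and embryonic transcripts in the Myl3 values was not tested.

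Knockout 4, one of the arrays with high Myl3, also had a high value of another light chain. Myl10 (1420805_at), a regulatory light chain first described in lymphocyte precursors, read 35.3, 315.3 and 24.4 on knockout arrays 2, 4 and 6 and 35.8, 35.8 and 38.7 on heterozygous arrays 1, 3 and 5. Dntt (1449757_x_at), the DNA polymerase of immature lymphocytes, read 6.09, 1779 and 22.7 on the knockout arrays and 15.7, 24.5 and 24.2 on the heterozygous arrays. Dntt was named after its values were seen, and its part in the Myl3 and Tnnt1 values of knockout 4 was not tested. On heterozygous 5, where Myl3 was as high, Dntt and Myl10 were not raised.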

How the data were processed

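Expression was measured on Affymetrix mouse 430.2 arrays in 3 knockout and 3 heterozygous thyroid RNAs, isolated with a Qiagen kit and labelled by the Ovation method, per the labels' protocols. The deposited intensity values, 1 per probe set and array, came from GCOS per the submitters' processing notes; its version is not given in the sources used here. Their mean after trimming 2% at each end was 500.002 on every array, so the arrays had been scaled to a common level and a shift of most transcripts would not show. Array medians ran from 78.1 to 103.6. The number of arrays limits the precision.

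Gene names came from the platform's annotation table. Values were taken as log2(signal + 16.7), the 25th percentile of all values, which understates changes of dim genes. The 64 control probe sets and those under the 40th percentile of the mean (a signal of 43.5) were left out, which left 27022. The comparison used lmFit and eBayes with a trend (limma 3.58.1, R 4.3.3), with Benjamini-Hochberg adjustment over all 27022 and a threshold of 0.05. A gene was represented by its probe set of the highest mean. Ratios were compared by exact permutation. On data simulated for this comparison with 27022 probe sets, the fit recovered 38% of 2-fold and 82% of 4-fold changes, with 6 false calls. The changes were planted in probe sets drawn at random from all those tested. Every tested member probe set but that of Tnnc1 lay at or above the 93.2nd percentile of within-group spread. These recovery shares do not apply to those members.

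The members, lists and tests were chosen with earlier results of these data known. Named genes were the members, Slc26a4, the cardiac troponins, Myl4 and Myl7, list genes of smallest p (at most 4 per list), and the 10 genes most like the fast and the slow mean; Ckm, Myh4, Sln, Csrp3 and Myh7 were named after their values were seen, as was Dntt. Normalization, pseudocount, filter, eBayes settings, array weights, the probe set taken and leaving out each array were varied.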

Additional observations from a re-analysis of the deposited data

How the results depend on the processing

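The counts of 0 past the threshold, for all probe sets, for the members and for the listed genes, held under quantile and cyclic loess normalization, 0.25 and 4 times the pseudocount, a filter raised to the 60th percentile or dropped, robust or trend-free eBayes, array weights, and without each array in turn. Without knockout 2, limma gave 6 of the 11 tested member probe sets and 941 of all 27022 an unadjusted p under 0.05. The fast mean difference stayed below 0 throughout, from -1.18 without knockout 2 to -0.09 without knockout 6. The mean fast-to-slow difference over the 5 pairs ran from -1.57 to -0.20 without single arrays, and that over the 3 pairs with both isoforms tested, chosen after seeing the data, from -1.66 to -0.27. Directions turned with single arrays left out for the ratios Myl1/Myl3 (-2.45 to 0.55) and Mylpf/Myl2 (-1.27 to 0.46), and for Tnnt1 (-0.19 to 0.52), Tnnc1 (-0.051 to 0.39), Myl1 (-0.89 to 0.015) and Myl3 (1427768_s_at -1.09 to 1.83, 1427769_x_at -0.70 to 1.53, 1428266_at -1.20 to 1.12). The direction of the slow mean difference, 0.08 with all arrays, turned as well (-0.25 to 0.52). The ratios Tnnt3/Tnnt1, Tnnc2/Tnnc1 and Tnni2/Tnni1 stayed below 0, from -1.67 to -0.40, -1.32 to -0.24 and -1.62 to -0.03. Mylpf/Myl2 was 0.46 on raw signals without a pseudocount, where Myl2 lies under background on 5 arrays. With array weights Myl3 was 2.14 (1427768_s_at), 1.64 (1427769_x_at) and 1.54 (1428266_at), Tnnt1 0.81 and Tnnc1 0.34, none past the threshold; the cause was not tested. No paired analysis was possible because the groups share no sample number. Tnni1 and Myl2 lie at background, which limits what their ratios can show.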
